A study of Mus musculus with 10 samples.

Results

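The muscle miRNAs measured here were mmu-miR-133a-3p, mmu-miR-133a-5p, mmu-miR-133b-3p, mmu-miR-1a-3p and mmu-miR-206-3p, 5 of the 1061 mature miRNAs listed for mouse retina. They were taken by name: the rows of the 3' arms of miR-1a, miR-133a, miR-133b and miR-206 and the 5' arm of miR-133a. All 10 retinas came from 5 wild-type C57BL/6J mice, an inbred laboratory strain, and were collected at postnatal day 34. Each animal had worn a goggle with a lens of -20 D, a strong minus lens used to induce myopia, over 1 eye for 10 days from postnatal day 24. Ketamine and xylazine had been given as anaesthetics when the goggle was attached. The other eye of the same animal had no lens and served as its control. The labels give the side and the mouse number (61, 64, 65, 66 or 68) of each retina but not which side had the lens, so the right retina of each mouse was set against its left one and neither is called treated.

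miR-1, miR-133 and miR-206 are known as myomiRs, miRNAs that are abundant in striated muscle. They are transcribed in pairs: a miR-1 hairpin with a miR-133a hairpin, and miR-206 with miR-133b. In muscle, miR-1 and miR-206 favour differentiation and target the histone deacetylase HDAC4, whereas miR-133 targets serum response factor and favours proliferation of myoblasts. miR-206 is found mainly in skeletal muscle, where it takes part in repair of the neuromuscular junction. None of the 5 is a defining miRNA of a retinal cell type, whereas miR-182, miR-183 and miR-96 mark photoreceptors.

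The mature sequences of miR-133b-3p and miR-206-3p are shown 5′ to 3′ because they stand for the 2 seed groups of these miRNAs. Capitals mark the seed, bases 2 to 8, through which a miRNA recognises most of its targets. Below them are 2 other muscle miRNAs, miR-208b-3p and miR-499-5p, whose levels are compared with those of the members. All 4 are RefSeq sequences of the GRCm38.p6 build.
miR-133b-3p: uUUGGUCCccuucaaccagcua
miR-206-3p: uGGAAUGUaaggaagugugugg
miR-208b-3p: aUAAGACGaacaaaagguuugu
miR-499-5p: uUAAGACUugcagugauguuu

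miR-133a-3p belongs to the seed group of miR-133b-3p, and miR-1a-3p to that of miR-206-3p. miR-133a-5p comes from the opposite arm of the miR-133a hairpin and has a seed of its own. RefSeq sequences were matched for 2 of the 5 members and for 909 of the 1061 miRNAs of the table. No other matched miRNA of the table had the seed of miR-133b-3p or of miR-206-3p. miR-133a-3p and miR-133b-3p are nearly identical over their whole length, so that reads trimmed by a base or read with an error can be given to either, and their split is uncertain.

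In GRCm38, miR-206-3p lay on chromosome 1 at 20679055 to 20679076 and miR-133b-3p at 20682834 to 20682855, 3779 bases further on the same plus strand. Both were in exons of the lincRNA Gm28653, which RefSeq names Lincmd1, a non-coding host transcript known from muscle differentiation. miR-1a-3p was placed on chromosome 2 at 180389096 to 180389117 and miR-133a-3p at 180398437 to 180398458, 9341 bases apart on the plus strand. miR-133a-5p lay in the same hairpin gene, Mir133a-2, at 180398401 to 180398421. RefSeq gives the RNA Mir1a-1hg, from 180385604 to 180401802, as the host gene around both hairpins. miR-1a and miR-133a have a further hairpin copy each, and mature reads do not show which copy they came from. The position is therefore the 1 copy that the deposited table names.

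All 5 miRNAs had their highest value in 1 library, the left retina of mouse 68, and in no other library was any of them the highest. Over all 1061 miRNAs, 71 (6.69%) had their highest value in that library. Every other library had at least 86 such miRNAs, so that the left retina of mouse 68 was the library with the fewest. That library had been seen to be high in miR-133a-3p before the comparison was drawn up, so its values are a description and support no test. Summed over the 5 members, it had 1746 normalised counts, or 0.0101% of the total. The other 9 libraries had 280 to 401, or 0.00162% to 0.00232%. Each library adds up to nearly the same total (17312269 to 17312436), because the deposited values had been normalised, and the depth behind them is unknown. A value follows from the place of the miRNA when its library is sorted by level, so that miRNAs with the same rank in several libraries have the same value.

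**Figure D1:**
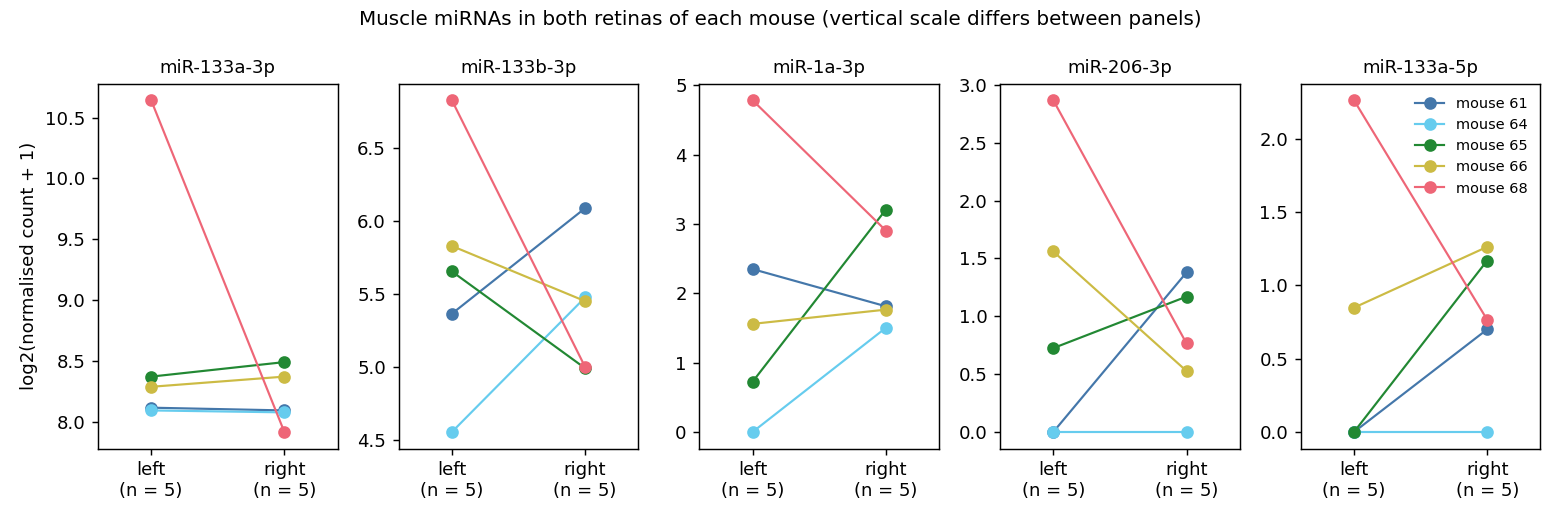
Level of each muscle miRNA, as log2(normalised count + 1), in the left and right retina of 5 mice, with 1 point per library and a line joining both retinas of a mouse. The left retina of mouse 68 is the highest point in all 5 panels, and the vertical scales differ between panels.

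mmu-miR-133a-3p, a repressor of serum response factor in muscle, was the most abundant member. In left retinas it had 277 normalised counts in mouse 61, 273 in mouse 64, 331 in mouse 65, 312 in mouse 66 and 1596 in mouse 68. In right retinas it had 273, 270, 359, 331 and 241 normalised counts in the same mice. The left retina of mouse 68 was thus 4.44 times the next highest library and 6.62 times the right retina of the same animal, which was the lowest of all 10. By rank it was the 96th most abundant miRNA there and between the 167th and the 192nd in the other 9 libraries. The SD of its log2 values was 0.79 over all 10 libraries. Over the other 9 libraries it was 0.19, against a median of 0.27 over the 484 miRNAs with a mean of at least 10. Of those 484, 74.0% had a larger SD over these 9. The library left out was picked for its high miR-133a-3p, whereas only 5.58% of the 484 had their highest value there. The comparison therefore favours a small SD for miR-133a-3p.

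mmu-miR-133b-3p shares its seed with miR-133a-3p and is transcribed with miR-206. It had 40.2, 22.5, 49.4, 55.8 and 113 normalised counts in the left retinas of mice 61, 64, 65, 66 and 68. Its right-hand values in these mice were 67.0, 43.5, 30.8, 42.7 and 31.0. The left retina of mouse 68 was 1.68 times the next highest library, the right retina of mouse 61. The other 9 libraries were more scattered than for miR-133a-3p, with an SD of 0.47 on the log2 scale, and 14.9% of the 484 miRNAs had a larger SD. The order of the remaining libraries also differed between both miRNAs: the right retina of mouse 65 was second for miR-133a-3p and among the lowest 3 for miR-133b-3p.

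mmu-miR-1a-3p, one of the most abundant miRNAs of adult skeletal and heart muscle, was scarce in all of these libraries. Left retinas had 4.10 normalised counts in mouse 61, 0 in mouse 64, 0.653 in mouse 65, 1.95 in mouse 66 and 26.6 in mouse 68. Right retinas had 2.52, 1.83, 8.24, 2.40 and 6.50. The left retina of mouse 68 was the only library above 10, and was followed by the right retinas of mice 65 and 68. Its rank was 388th there and 494th or lower in the other 9 libraries.

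mmu-miR-206-3p, the myomiR of skeletal muscle, was at 6.29 normalised counts in the left retina of mouse 68. Elsewhere it was listed at 0 in both retinas of mouse 64, at 2.81e-36, in effect 0, in the left retina of mouse 61, and at 0.653 and 1.95 in the left retinas of mice 65 and 66. The right retinas of mice 61, 65, 66 and 68 had 1.6, 1.25, 0.441 and 0.700. mmu-miR-133a-5p, the minor arm of miR-133a, had 3.80 normalised counts in the left retina of mouse 68. It was listed at 0 in the left retinas of mice 61, 64 and 65 and in the right retina of mouse 64. The remaining values were 0.800 in the left retina of mouse 66 and 0.625, 1.25, 1.4 and 0.700 in the right retinas of mice 61, 65, 66 and 68.

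miR-206-3p and miR-133a-5p were at or near the lowest values outside the left retina of mouse 68, and miR-1a-3p was in some libraries. In each library between 97 and 125 miRNAs shared 1 low value, the lowest value held by at least 10 miRNAs, as miRNAs with the same small number of reads would. miR-133a-5p was at 0 in 4 libraries, at or below that shared value in 3 and above it in 3. For miR-206-3p these numbers were 2, 4 and 4, and for miR-1a-3p they were 1, 1 and 8. A value at this level says little about which library is higher. In the left retina of mouse 68, miR-133a-5p was on the fifth of these shared values counted from the lowest, miR-206-3p on the eighth and miR-1a-3p above those shared by 10 or more. miR-1a-3p was on the tenth in the right retina of mouse 65, the seventh in the right retina of mouse 68 and the fifth in the left retina of mouse 61.

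The order of the members was largely the same in all libraries. miR-133a-3p was above miR-133b-3p, and miR-133b-3p above miR-1a-3p, in 10 of 10 libraries. miR-1a-3p was above miR-206-3p in 7 and equal to it in 3. miR-206-3p and miR-133a-5p were not separated: the former was higher in 4 libraries, lower in 1 and equal, within 0.001, in 5. The library kit ligates adapters to some sequences better than to others, so the order of counts is not an order of molecules, although the mature RNAs are of nearly the same length.

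The left retina of mouse 68 was then set against the median of the other 9 libraries on the scale of log2(value + 1), where adding 1 understates the differences of low miRNAs. The difference was 3.02 for miR-1a-3p, 2.52 for miR-133a-3p, 2.14 for miR-206-3p, 1.56 for miR-133a-5p and 1.38 for miR-133b-3p. All 5 were at least 2-fold above that median, against 76 (7.16%) of all 1061 miRNAs. Of the 484 miRNAs with a mean of at least 10, which include miR-133a-3p and miR-133b-3p, 8 (1.65%) were 2-fold above it and 27 (5.58%) had their highest value in this library. miR-133a-3p had the largest difference of these 484 and miR-133b-3p the 4th largest. Among all 1061, miR-1a-3p was first and miR-133a-3p second. miR-206-3p was 6th, miR-133a-5p 18th and miR-133b-3p 27th. In the other 9 libraries, the difference of miR-133a-3p from the median of the rest lay between -0.37 and 0.37 and was between the 59th and the 416th largest of the 484.

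**Figure D2:**
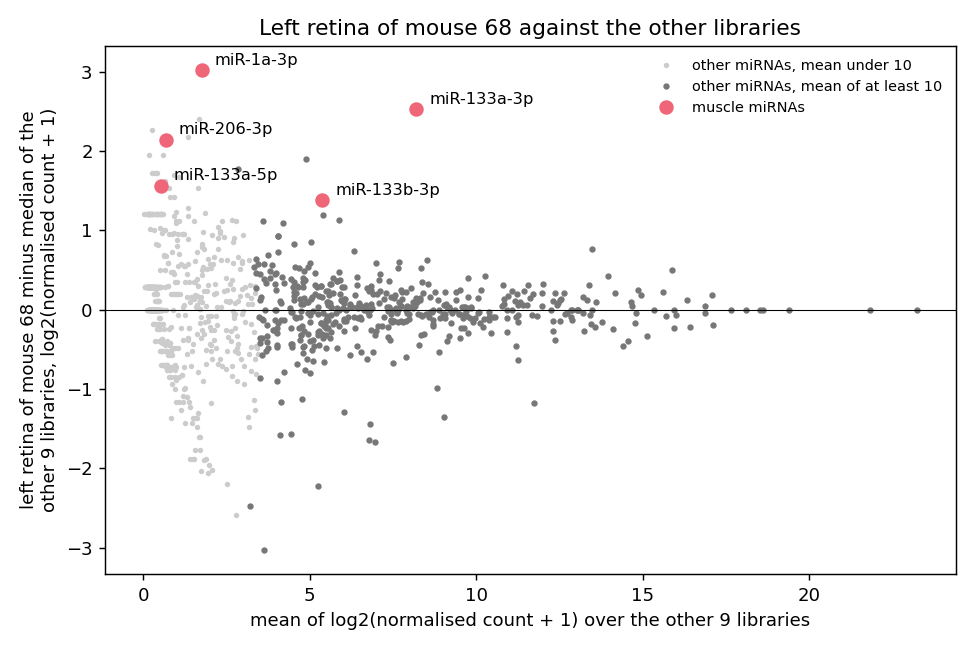
Difference of the left retina of mouse 68 from the median of the other 9 libraries, in log2(normalised count + 1), against the mean level in those 9 libraries. Each point is 1 of 1061 miRNAs, the muscle miRNAs are named, and they lie between 1.38 and 3.02, with miR-133a-3p at 2.52 the highest of the miRNAs with a mean of at least 10.

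Ratios between the members in that library were set against those in the others, and whether the members were higher by 1 common factor was not tested. miR-133b-3p was at 7.05% of miR-133a-3p in the left retina of mouse 68 and at 8.25% to 24.6% in the other 9 libraries, with a median of 14.5%. Counting only the part above the median of the other 9, miR-133b-3p had 5.29% of what miR-133a-3p had. For the 2 arms of miR-133a the ratio was within the range of the others: miR-133a-5p was at 0.238% of miR-133a-3p there and between 0.229% and 0.423% in the 5 other libraries where it was above 0. The ratio of miR-1a-3p to miR-133a-3p, whose hairpins share a primary transcript, was 1.67% there. It was within the range of the other 9, from 0 to 2.70%. miR-206-3p was at 5.59% of its partner miR-133b-3p in this library and at 4.06% or less elsewhere. Because the values follow ranks, such ratios show the order of libraries better than they show amounts.

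Other miRNAs known from striated muscle were read from a list of 16, of which the table held 7. None of the 7 had its highest value in the left retina of mouse 68 alone. Over all 1061 miRNAs 6.69% did, so that a count of 0 among 7 says little. miR-499-5p, which is encoded in an intron of the myosin gene Myh7b, was at 42.4 normalised counts there and at 30.03 to 51.3 in the other 9 libraries. miR-208b-3p, from the slow myosin gene Myh7, was at 6.29 and at 1.83 to 10.9 elsewhere. The sequences of both are printed above, with seeds other than those of the members. miR-378a-3p, hosted by Ppargc1b, was at 24916 against 22384 to 34261. miR-486a-5p, of muscle and red blood cells, was at 2948 against 2508 to 4352. miR-486b-5p, which has the same mature sequence, was at 3671, the same value as in both the right retina of mouse 61 and that of mouse 68. miR-1b-3p was listed at 0 there and in 6 other libraries. miR-499-3p was at 0.215, within the range of the others, from 0 to 3.30. The median difference of the 4 with a mean of at least 10 from the median of the other 9 libraries was 0.01 on the log2 scale, whereas over miR-133a-3p and miR-133b-3p it was 1.95. Among the 4, miR-378a-3p, miR-486a-5p and miR-486b-5p had at least 2308 normalised counts in every library. A gain like that of miR-133b-3p, 69.8 above the median, would hardly show in them.

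Retinal markers were abundant in all 10 libraries: the 3 photoreceptor miRNAs miR-182-5p, miR-183-5p and miR-96-5p made up 60.9% to 61.1% of each. miR-182-5p, miR-181a-5p of the inner retina and miR-204-5p of the pigment epithelium had the same value in all 10. Values at the top ranks are fixed by the normalisation, so their sameness does not show that the amounts were alike. The pigment epithelium list was highest in the left retina of mouse 68, with summed normalised counts of 224590 against 209900 to 220700 elsewhere. As miR-204-5p did not vary, that sum varied mainly with miR-211-5p, hosted by Trpm1, which was at 20982 against 6309 to 17043. miR-204-3p (53.7 against 33.9 to 71.2) and miR-211-3p (56.6 against 36.6 to 89.8) were within the range of the other libraries. The median log2 difference of the 4 members in the left retina of mouse 68 was -0.02. Markers of other tissues were compared in the same way. The smooth muscle and pericyte list was lowest in this library, with 14543 against 15480 to 21127 elsewhere. Its most abundant member, miR-143-3p, was at 14434 against 15330 to 20982. The connective tissue list had 942 against 668 to 1155, with miR-199a-3p at 257 against 239 to 411. Its members went both ways. miR-10b-5p and miR-10a-5p were each 2nd highest there, with log2 differences of 1.13 and 0.58, and miR-214-5p and miR-199b-3p were at 0.24 and 0.04. miR-199a-3p, miR-199a-5p, miR-199b-5p and miR-214-3p were at -0.32, -0.26, -0.26 and -0.19. The endothelial list had 8926 against 7427 to 9110, the erythroid list 6699 against 4980 to 8112, the leukocyte list 2248 against 1589 to 2345 and the liver list 8180 against 6179 to 9464. Their leading members miR-126a-5p, miR-486b-5p, miR-150-5p and miR-192-5p also lay within the range of the other libraries or equalled its end.

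The markers of lens, cornea and surface epithelium summed to 1756 in the left retina of mouse 68 against 1233 to 22646. The upper end was the right retina of mouse 65, where miR-184-3p, an abundant miRNA of lens and cornea, was at 22384 and not above 2117 in any other library. The other markers of the list were not all high there: miR-200a-3p had its lowest value, 0.201, and the median log2 difference of the list was -0.01. That library was the next highest for miR-133a-3p (359) and for miR-1a-3p (8.24). It was among the lowest 3 for miR-133b-3p (30.8), and not the next highest for miR-206-3p (1.25) or miR-133a-5p (1.25). Of the 8 members of this list, only miR-200a-3p had its highest value in the left retina of mouse 68, at 32.1 normalised counts against 0.201 to 26.1. miR-141-3p was at 1.25 there against 0.700 to 35.7, a log2 difference of -2.48. Both had the same value in each retina of mouse 61 (13.9 and 6.4) and in the right retina of mouse 66 (8.72). The median log2 difference of the 5 members with a mean of at least 10 was -0.14. Besides miR-200a-3p and miR-211-5p, miR-122-5p of the liver list, at 1.30, was the only listed marker highest there. Over all 1061 miRNAs the share highest there was 6.69%. The part of these tissues and of the pigment epithelium in the levels of the muscle miRNAs was not tested.

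**Figure D3:**
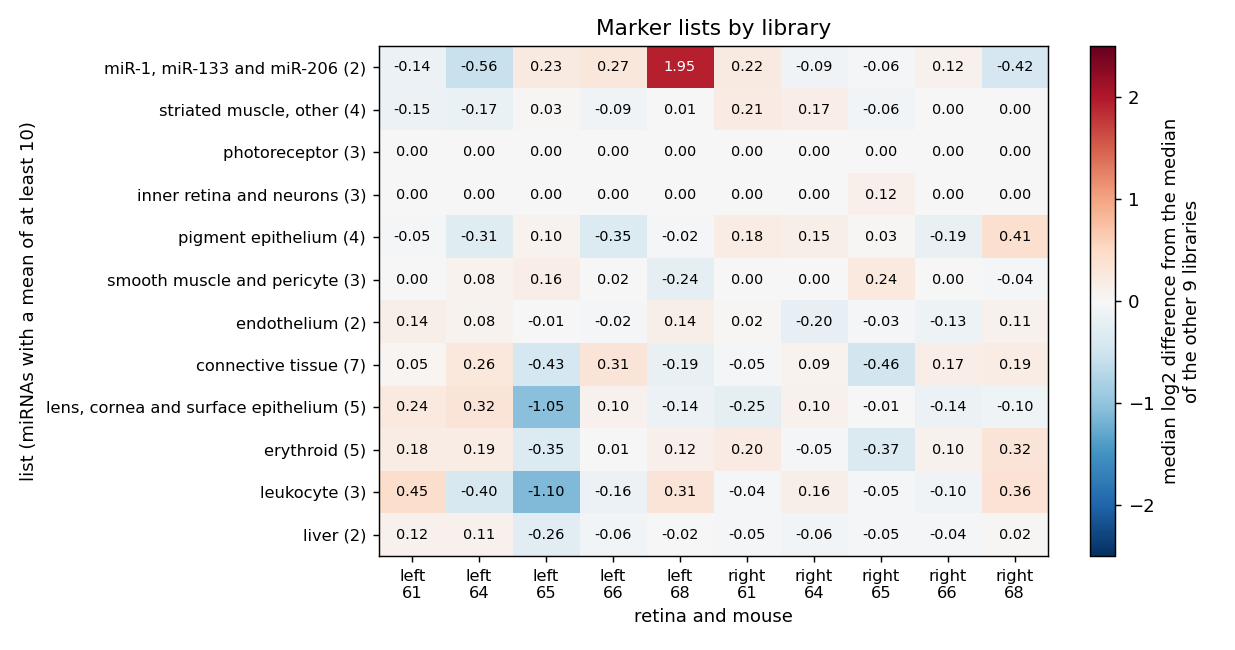
Median difference of each list from the median of the other 9 libraries, in log2(normalised count + 1), for 10 libraries in columns and 12 lists in rows, with the number of miRNAs with a mean of at least 10 in brackets. miR-133a-3p and miR-133b-3p, in the top row, stand at 1.95 in the left retina of mouse 68, where the other striated muscle miRNAs stand at 0.01 and the smooth muscle and pericyte list at -0.24. The other striated muscle row holds the abundant miR-378a-3p, miR-486a-5p and miR-486b-5p, in which a small gain would hardly show.

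Setting right against left retina asks whether the members differ by side, in mice of which 1 eye had the lens. The labels do not say which eye that was, or whether it was the same side in every mouse. The contrast is therefore no test of the lens. No member passed it. miR-133a-3p and miR-133b-3p were tested with the 484 miRNAs that had a mean of at least 10, by limma with mouse as a block. The other 3 members were below that mean and entered only a fit of all 1061 miRNAs. In neither fit did any miRNA pass an adjusted p of 0.05 (0% of 484 and 0% of 1061), and 12 of the 484 and 25 of the 1061 had an unadjusted p under 0.05 by limma. Neither miR-133a-3p nor miR-133b-3p was among the 12.

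miR-133a-3p averaged 558 ± 581 normalised counts (SD, n = 5) over left retinas and 295 ± 48.6 over right ones. The right-minus-left log2 fold change was -0.51 (SE 0.44, 95% interval -1.58 to 0.55), with an adjusted p of 0.958 by limma. By mouse the differences were -0.02 in mouse 61, -0.02 in mouse 64, 0.12 in mouse 65, 0.08 in mouse 66 and -2.72 in mouse 68. Mouse 68 alone set the mean. Without it the log2 fold change was 0.04 (95% interval -0.21 to 0.29), with 2 mice higher and 2 lower on the right and an adjusted p of 0.988 by limma.

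For miR-133b-3p the averages were 56.1 ± 34.0 normalised counts (SD, n = 5) over left and 43.0 ± 14.7 over right retinas. The right-minus-left log2 fold change was -0.24 (SE 0.40, 95% interval -1.22 to 0.73, adjusted p 0.972 by limma), and 0.15 without mouse 68. The right retina was higher in mice 61 and 64, by 0.72 and 0.92, and lower in mice 65, 66 and 68, by -0.66, -0.38 and -1.83. miR-133a-3p and miR-133b-3p thus had opposite signs in all 4 mice other than mouse 68, where those of miR-133a-3p were at most 0.12 in size. The standard errors of both were wide for these data: 97.1% of the 484 miRNAs had a smaller one than miR-133a-3p and 95.9% a smaller one than miR-133b-3p, against a median of 0.14.

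The 3 low members varied in sign between mice. miR-1a-3p had a mean log2 difference of 0.35, with 3 mice higher and 2 lower on the right, from -1.88 in mouse 68 to 2.48 in mouse 65. miR-206-3p had -0.26, from -2.10 in mouse 68 to 1.38 in mouse 61, and no difference in mouse 64, where both retinas were listed at 0. miR-133a-5p had 0.16, from -1.50 in mouse 68 to 1.17 in mouse 65. In the fit of all 1061 miRNAs their adjusted p values by limma were 0.954 for miR-1a-3p and 0.961 for miR-206-3p and miR-133a-5p. An exact two-sided sign-flip test over 5 mice gave p values between 0.688 and 0.812 for the 5 members. Its p cannot go below 0.0625, or below 0.125 for miR-206-3p and miR-133a-5p, which had no difference in mouse 64.

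**Figure D4:**
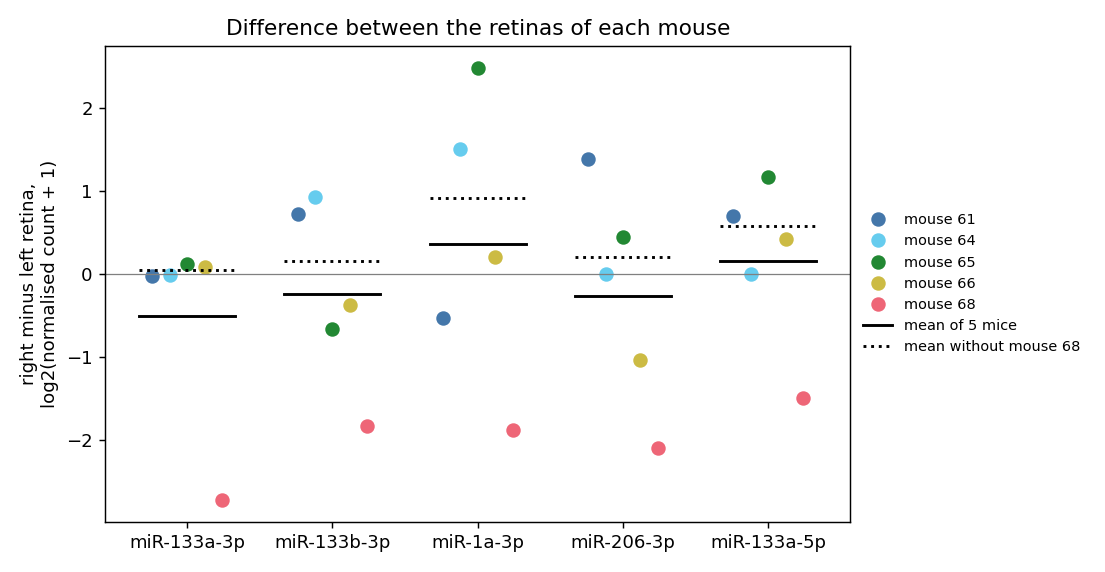
Right minus left retina in log2(normalised count + 1) for each muscle miRNA and mouse, with the mean of 5 mice as a full line and the mean without mouse 68 as a dotted line. Mouse 68 is the lowest point for all 5 miRNAs, from -2.72 to -1.50, and without it the mean of each miRNA is above 0.

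None of the 5 members had the same direction in all 5 mice, as 18 (3.72%) of the 484 did. In mouse 68 all 5 were lower on the right. In the other mice the differences of a member were of either sign or 0, and only for miR-133a-5p was none of the 4 below 0. In such whole-tissue samples a change in the number of cells of 1 type cannot be told apart from a change in their RNA.

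Which miRNAs were most like miR-133a-3p across the 10 libraries depended on the measure. By Spearman's rho of log2(value + 1), the 5 closest of the 478 other miRNAs with a mean of at least 10 and varying values were not members: miR-7a-5p (0.88), miR-30b-5p (0.85), miR-669c-5p (0.79), miR-106b-5p (0.77) and miR-425-5p (0.77). For miR-133b-3p the rho was 0.29, the 134th, and for the low members it was 0.60 (miR-133a-5p), 0.46 (miR-206-3p) and 0.35 (miR-1a-3p). By Pearson's r, which weights the size of the values, miR-133b-3p was the closest of the 478 with 0.72. The low members had an r of 0.80 (miR-206-3p), 0.78 (miR-133a-5p) and 0.70 (miR-1a-3p). Without the left retina of mouse 68 the r of miR-133b-3p was 0.14, the 193rd, and those of the low members were 0.35, 0.42 and 0.04 in the same order. The likeness by Pearson's r therefore rests on 1 library. All of these are descriptions over 10 libraries that share animals in pairs.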

How the data were processed

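The deposited table holds a signal derived from read counts, called normalised counts by its name, for 1061 mature miRNAs in 10 libraries. Per the labels' protocols, 50 ng of small RNA went into each TruSeq Small RNA library. The submitters' processing notes name Partek, Bowtie, GRCm38 and mm10. For the miRNA annotation, the normalisation and the assignment of shared reads, no method is stated in the labels or the table. Sorted values were identical in all libraries at 342 ranks, as quantile normalisation gives, so the depth is unknown and no counting interval is given. The table held 0 columns of other samples.

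miRNAs with a mean of at least 10 were tested, 484 of 1061. The model for log2(value + 1) had side and, as a block, mouse, and was fitted by limma 3.58.1 (R 4.3.3) with trended empirical Bayes moderation. P-values are two-sided, with Benjamini-Hochberg adjustment over all miRNAs tested and a threshold of 0.05. Mouse was a term because both retinas of a number came from 1 animal. Their deviations from the mean of the side correlated across miRNAs by 0.0893 to 0.382. The script was tested on simulated data.

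The members and lists were chosen with earlier results of these data known. Named were the 5 members, the listed striated muscle miRNAs, the 5 closest to miR-133a-3p by Spearman's rho, the 10 with the largest difference in the left retina of mouse 68 and the most abundant of each marker list. Others were named after their values were seen. Positions come from the deposited table, with the last base 1 before its end column, host genes those of GENCODE M21 and RefSeq. Alternatives were other pseudocounts, filters, scaling, no block, no trend, robust moderation and leaving out each mouse.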

Additional observations from a re-analysis of the deposited data

Results flagged for a closer look

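A library was far from the others of its side for 3 members, by the gap to the nearest value divided by the range of the 5 libraries, taken on the deposited values. In the left retina of mouse 68, miR-133a-3p was at 1596 normalised counts, miR-1a-3p at 26.6 and miR-133a-5p at 3.80. The gaps were 0.956, 0.846 and 0.789 of the range, past Dixon's critical value of 0.71 for 5 samples. On the scale of log2(value + 1) they were 0.891, 0.509 and 0.625, and miR-133a-3p alone was past that value. For miR-206-3p and miR-133b-3p in the same library the gaps on the deposited values were 0.690 and 0.630. Chance flags about 1 group in 20, and 10 groups were examined. The library was already known to be high in miR-133a-3p and the members are not independent of each other, so these gaps describe the library and are no test of it.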

How the results depend on the processing

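No miRNA passed the right-minus-left test under any alternative run, and the adjusted p by limma ran from 0.539 to 1 for miR-133a-3p and from 0.919 to 1 for miR-133b-3p. In each fit that left out 1 mouse 0 miRNAs passed, and 7 to 62 had an unadjusted p under 0.05. The fit with no replicate block gave 0 passing miRNAs, so that dropping the pairing changed no call. Its log2 fold changes, -0.51 for miR-133a-3p and -0.24 for miR-133b-3p, could not differ. Each mouse had 1 library per side, so only the standard errors and p-values could change. Leaving out each mouse gave -0.67 to 0.041 for miR-133a-3p, -0.54 to 0.15 for miR-133b-3p, -0.18 to 0.91 for miR-1a-3p, -0.67 to 0.20 for miR-206-3p and -0.10 to 0.57 for miR-133a-5p. The sign turned without mouse 68 for miR-133a-3p, miR-133b-3p and miR-206-3p, and without mouse 65 for miR-1a-3p (-0.18) and miR-133a-5p (-0.10). With a pseudocount of 10 the value was -0.050 for miR-1a-3p and -0.0063 for miR-133a-5p, and with 0.1 it was 0.00225 for miR-206-3p. A larger pseudocount shrinks low values by construction.

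The difference of the left retina of mouse 68 kept its sign in every alternative run. Against the right retina of the same mouse it was 2.72 for miR-133a-3p and 1.88 for miR-1a-3p, and against the other 4 left libraries 2.26 for miR-133a-5p. With a pseudocount of 10 it was 1.56 for miR-1a-3p, 0.61 for miR-206-3p and 0.38 for miR-133a-5p. After median-ratio scaling, chosen for this count after the data were seen, 5 of 5 members were still highest there. That run could not have come out otherwise. Its scaling factors were 0.998 to 1.02, and each member was at least 1.68 times its next highest library. The unknown depth limits miR-1a-3p, miR-206-3p and miR-133a-5p most. The filter at a mean of at least 100 kept miR-133a-3p of the members, and the fits with no block, no trend or robust moderation were run for the 2 tested members.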

Other observations

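Besides miR-133a-3p and miR-133b-3p, the 10 miRNAs with the largest difference of the left retina of mouse 68 from the median of the other 9 libraries, among the 484 with a mean of at least 10, held no miRNA of striated muscle. miR-1249-3p was at 100 normalised counts there against 10.5 to 71.8 elsewhere, a log2 difference of 1.90. miR-200a-3p, an epithelial miRNA, had a log2 difference of 1.77, whereas miR-141-3p of the same marker list had -2.48. miR-6240 was at 92.0 against 25.3 to 71.2, and miR-483-3p, hosted by the Igf2 gene, at 28.3 against 2.0 to 21.6. miR-1249-3p, miR-200a-3p, miR-6240 and miR-483-3p were highest in that library. miR-10b-5p (137), let-7b-3p (37.8), let-7a-1-3p (28.5) and let-7c-2-3p (28.5) were higher in another library, the right retina of mouse 68 for miR-10b-5p and the right retina of mouse 65 for the let-7 opposite arms. miR-10b-5p was thus high in both eyes of mouse 68, at 137 and 151 against 11.3 to 106 in the other mice, whereas miR-133a-3p was the highest of all libraries in 1 eye of this mouse and the lowest in the other.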
